A study of Mus musculus with 6 samples.

Results

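Nr1d1, Nr1d2, Clock, Per1, Per2, Per3, Cry1, Cry2, Dbp and Tef are genes of the circadian clock, chosen by name. Their mRNA was measured in MLE15 cells, a line of mouse lung epithelium from pulmonary adenocarcinomas of mice whose human surfactant protein C promoter drives the simian virus large tumor antigen. Each of the 10 had 1 transcript cluster (the set of array probes for a gene) of its own, among the 19938 genes with a single symbol in the array annotation. All 10 lay above the background limit, a log2 value of 4.35, in both groups. Of 6 arrays, 3 held RNA of MLE15 cells transduced with lentivirus for a mix of shRNAs against Nkx2-1. The other 3 held RNA of cells labelled as carrying the empty pLKO.1 vector. An empty vector carries no hairpin, but the methods name a non-silencing control instead, and the sources do not settle which was used. Both groups were selected in puromycin, and the 3 lines of each were transduced independently. The labels give a time of 48 h for every sample, whereas the methods describe stable lines that were frozen and expanded. Neither source gives the hour of harvest or a step that set the cells to a common phase, so a change in the level of a clock gene and a change in its phase cannot be told apart.

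The clock of a mammalian cell is a loop of transcription and repression. CLOCK pairs with BMAL1, the product of Arntl, binds E-box sequences and switches on the Period, Cryptochrome, Nr1d and PAR bZIP genes. PER and CRY proteins then inhibit the pair, while NR1D1 and NR1D2 (REV-ERB alpha and beta) repress Arntl and other genes at elements through which ROR receptors activate them. DBP and TEF carry the rhythm to output genes with a D-box, which NFIL3 represses. The lung epithelium has a clock of this kind, which is known for gating the inflammatory response of the airway over the day.

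Sequences are shown for the members whose promoters hold clock elements, and for the genes that changed most. RefSeq promoter windows (250 bases before the start site and 50 after it, build GRCm38.p6) were matched for 9 of the 10 members, with 13 windows in all. They were searched on both strands for the E-box CACGTG, the D-box TTATGTAA or TTACGTAA and the core TAGGTCA of the ROR and NR1D element. The cAMP element TGACGTCA and CTCAAG, named the Nkx2-1 core here, were searched as well. The study's own core of the Nkx2-1 site is the shorter CAAG or CTTG, which was not searched. No match overlapped another. Of all 32851 windows 7.15% hold CACGTG, 0.938% TTATGTAA, 0.119% TTACGTAA, 2.61% TAGGTCA, 1.79% TGACGTCA and 15.9% CTCAAG. An E-box was in windows of 3 members, Per1, Cry1 and Tef, and none of these passed the test below. Per3 held the D-box in 2 places, and Dbp held the Nkx2-1 core in 2 places. The other members with a window, Nr1d1, Nr1d2, Clock and Cry2, held none of the motifs searched, which says nothing of the factors. The shorter CAAG and CTTG do occur in the Nr1d1 stretch below, where they are not marked. Capitals mark the matches, and each stretch reads 5′ to 3′ along the gene.
Per3, chr4:151044796-151044890, minus strand, D-boxes that begin 205 and 158 bases before the start: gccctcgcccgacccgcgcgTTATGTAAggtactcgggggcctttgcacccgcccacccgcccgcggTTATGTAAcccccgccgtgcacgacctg
Per1, chr11:69098763-69098808, plus strand, E-box that begins 166 bases before the start: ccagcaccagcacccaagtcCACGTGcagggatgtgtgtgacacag
Cry1, chr10:85185089-85185134, minus strand, E-box that begins 60 bases before the start: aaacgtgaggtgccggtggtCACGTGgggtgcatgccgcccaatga
Tef, chr15:81802526-81802571, plus strand, E-box that begins 127 bases before one start (another lay 138 bases before the other start): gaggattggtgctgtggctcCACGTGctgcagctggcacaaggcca
Dbp, chr7:45704997-45705203, plus strand, Nkx2-1 cores that begin 241 and 69 bases before the start: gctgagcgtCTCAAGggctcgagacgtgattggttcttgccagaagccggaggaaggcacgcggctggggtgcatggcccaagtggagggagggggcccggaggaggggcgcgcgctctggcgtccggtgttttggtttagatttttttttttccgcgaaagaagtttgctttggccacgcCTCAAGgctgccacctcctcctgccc
Nr1d1, chr11:98775378-98775627, minus strand, the 250 bases before the start of the gene that rose most: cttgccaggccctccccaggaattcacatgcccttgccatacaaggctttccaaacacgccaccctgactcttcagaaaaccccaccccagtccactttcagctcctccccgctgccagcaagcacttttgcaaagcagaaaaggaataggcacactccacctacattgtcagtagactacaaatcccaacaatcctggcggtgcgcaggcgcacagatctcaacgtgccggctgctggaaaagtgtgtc

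Differences were tested with limma over all 35557 transcript clusters, and a gene was called at an adjusted p under 0.05. Values are log2 units of the Robust Multi-Array Analysis, so that a log2 fold change of 1 is a doubling of signal. Nkx2-1, the target of the shRNAs, stood at 7.91, 7.98 and 7.83 in the knock-down lines and 8.61, 8.61 and 8.59 in the vector lines, or 61.8% of control (adjusted p = 0.00155). Array medians lay between 5.10 and 5.14 in the knock-down and between 5.18 and 5.21 in the vector lines, a shift that median centring removes. Of 11 lung epithelial markers 9 lay above background in at least 1 group, among them Epcam, Cdh1 and Sftpb, while Scgb1a1 of club cells and Lamp3 lay below it in both groups and Sftpc was above it in the vector lines alone. Of the fibroblast markers 4 of 5 (Col1a1, Col1a2, Col3a1 and Pdgfra) lay above background in both groups and Dcn lay below it. Cd3e was the 1 of 3 leukocyte markers above it in both groups, and Pecam1, Cdh5 and Kdr of endothelium lay below it. Summed log2 values of the 3 leukocyte markers measured ran from 11.10 to 11.48 in the knock-down and from 11.47 to 12.14 in the vector lines. The 4 endothelial markers summed to between 14.59 and 15.34 against 16.69 and 17.18, of which Tek alone was called. Tek was above background in the vector lines alone (limma on the measured values, adjusted p = 4.1e-04). It was at least 2.68-fold lower in the knock-down lines, with each knock-down array set to the limit where it lay under it. The 5 fibroblast markers summed to between 24.12 and 24.56 against 24.00 and 24.41. The part of other cell types in the results was not tested.

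Nr1d1, Nr1d2 and Dbp rose in the knock-down lines, to 229%, 170.5% and 179.8% of the vector level, and Cry2 fell to 77.0%. Of the 10 members 3 were called higher and 1 lower, and the other 6 did not pass. Over all transcript clusters 7.61% were called higher, 9.24% lower and 16.8% in either direction. Calls were more frequent among clusters above background, where all 10 members lay. A fit of those 23139 clusters alone called 3086 higher and 3836 lower, and of the members 5 higher and 1 lower. The groups did not overlap for 6 of the members, against 34.9% of all transcript clusters. The median log2 fold change of the 10 was 0.19, and that of all transcript clusters −0.029. With median centring 5 were called higher (Clock and Per3 besides the 3) and none lower, and the median of the 10 was 0.27. Over the whole table, 45.2% of the calls were higher as deposited and 59.5% after median centring, which moved the median of all transcript clusters to 0.051. At the study's stricter threshold (adjusted p under 0.0005 and a log2 fold change beyond 0.6), limma called none of the 10, and of all transcript clusters 0.804% higher and 1.26% in either direction. The methods' own test called none of the 10 and none of all transcript clusters there. At an unadjusted p under 0.05 there were 6 members by limma and 6 by the methods' own test, against 29.6% and 26.7% of all transcript clusters. In bulk RNA, fewer cells that express a gene and less of its RNA per cell cannot be told apart.

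**Figure D1:**
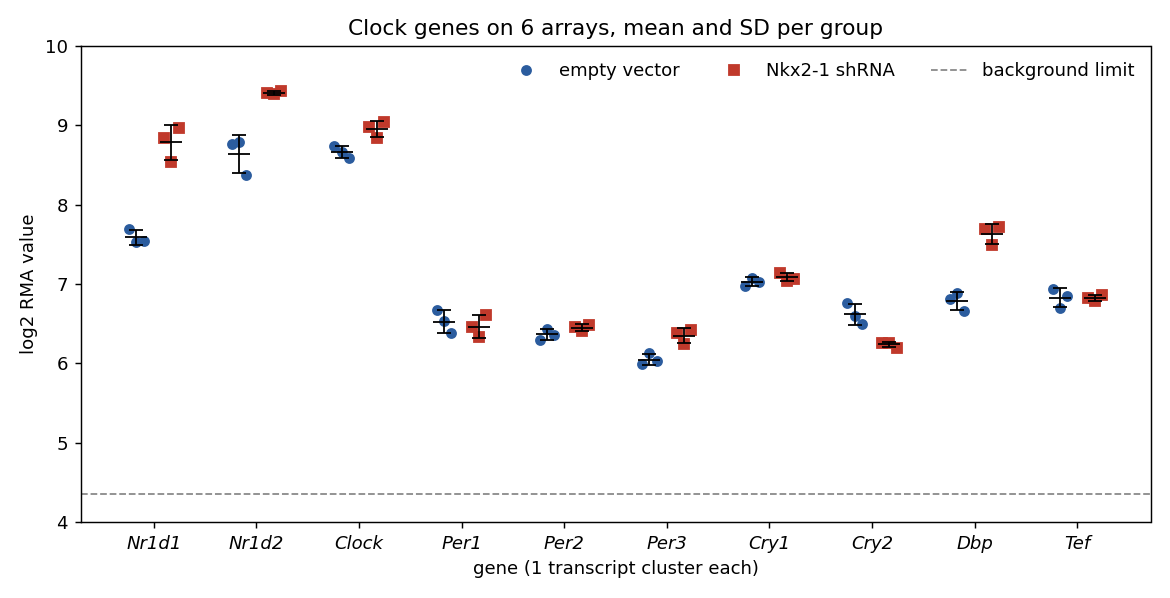
Log2 values (vertical axis) of the 10 clock genes (horizontal axis) in the 3 empty vector arrays (blue circles) and the 3 Nkx2-1 shRNA arrays (red squares), where bars give group means ± SD and a dashed line the background limit of 4.35. The red squares of Nr1d1, Nr1d2 and Dbp stand above all blue circles, by 0.84, 0.595 and 0.60, those of Cry2 stand below, and the groups of Per1, Per2, Cry1 and Tef overlap.

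Both nuclear receptor genes rose, and the change of Nr1d1 was the largest of the 10. Nr1d1, which encodes the repressor REV-ERB alpha, had log2 values of 8.84, 8.54 and 8.97 in the knock-down lines and 7.70, 7.53 and 7.54 in the vector lines. The lowest knock-down line stood 0.84 above the highest vector line. Its mean rose from 7.59 ± 0.098 to 8.78 ± 0.22 (SD, n = 3), or by 1.20 log2 units (SE 0.13, 95% confidence interval 0.90 to 1.495, adjusted p = 0.00137). Without any 1 array the log2 fold change lay between 1.102 and 1.317 and the adjusted p between 0.00208 and 0.00922. Thra, a thyroid hormone receptor gene that overlaps Nr1d1 in the RefSeq annotation, went the other way, from 7.50 ± 0.054 to 7.10 ± 0.055 (log2 fold change −0.40, adjusted p = 0.0143).

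Nr1d2, which encodes the related repressor REV-ERB beta, stood at 9.41, 9.39 and 9.43 in the knock-down lines and at 8.76, 8.79 and 8.37 in the vector lines. The knock-down lines lay close together (SD 0.024), and the vector lines were spread (SD 0.236) by replicate 3, the lowest. The log2 fold change was 0.77 (SE 0.13, 95% confidence interval 0.47 to 1.07, adjusted p = 0.00755), and 0.63 to 0.85 without any 1 array (adjusted p 0.00641 to 0.0326). The calls of Nr1d1 and Nr1d2 ended under a test that lets the groups differ in variance, named the unequal-variance test from here on (adjusted p = 0.0686 and 0.164). They held in the other 15 of 16 alternatives, the lowest adjusted p being 3.3e-05 and 6.2e-04.

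Clock, which encodes the partner of BMAL1, had log2 values of 8.98, 8.84 and 9.04 in the knock-down lines and 8.74, 8.66 and 8.59 in the vector lines. The groups did not overlap, by a gap of 0.11. Its log2 fold change of 0.29 (SE 0.087, 95% confidence interval 0.081 to 0.49) did not pass the test (adjusted p = 0.0683). It passed in 4 of the 16 alternatives, with median centring (adjusted p = 0.0297), with a trended and robust prior, and among transcript clusters above background or with 1 symbol. None of the 6 fits without 1 array passed (0.0754 to 0.193).

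Of the Period genes, whose proteins hold the CLOCK and BMAL1 pair in check, none was called. Per3 had the largest difference, with 6.38, 6.24 and 6.42 in the knock-down lines and 5.99, 6.13 and 6.03 in the vector lines. The groups stood 0.11 apart, and the log2 fold change was 0.30 (SE 0.086, 95% confidence interval 0.095 to 0.51, adjusted p = 0.0586). It passed in 5 of the 16 alternatives (0.0277 to 0.176 in all), among them median centring and a repeated quantile normalization, and in none of the fits without 1 array. Per1, which is also induced by glucocorticoids and cAMP, stood at 6.46, 6.33 and 6.61 against 6.67, 6.53 and 6.38. Its values were mixed between the groups, and the difference of −0.064 log2 units (95% confidence interval −0.33 to 0.21, adjusted p = 0.775) became 0.017 after median centring. Per2 stood at 6.46, 6.41 and 6.49 against 6.30, 6.44 and 6.36, which differ by 0.084 (95% confidence interval −0.10 to 0.27, adjusted p = 0.546). The intervals of Per1 and Per2 leave out a doubling or a halving of signal, and neither gene passed in any alternative.

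Of the Cryptochrome genes, which encode the stronger repressors of the loop, Cry2 was called and Cry1 was not. Cry2 had log2 values of 6.26, 6.26 and 6.20 in the knock-down lines and 6.76, 6.60 and 6.50 in the vector lines. All knock-down lines lay below all vector lines, by at least 0.23. The log2 fold change was −0.38 (SE 0.091, 95% confidence interval −0.59 to −0.16, adjusted p = 0.0330). This call ended with median centring (log2 fold change −0.30, adjusted p = 0.0826), with the methods' own test (adjusted p = 0.0643) and with the unequal-variance test (adjusted p = 0.171). It also ended without Nkx2-1 shRNA replicate 1, 2 or 3 (0.0965, 0.0852 and 0.103) and without empty vector replicate 1 or 2 (0.0804 and 0.0785), and held without replicate 3 (0.0290). Cry1 stood at 7.14, 7.04 and 7.07 against 6.98, 7.08 and 7.03. Its groups overlapped, and the difference of 0.054 (95% confidence interval −0.13 to 0.23, adjusted p = 0.706) did not pass in any alternative.

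Dbp and Tef encode PAR bZIP factors that bind the same D-box, and only Dbp was called. Dbp had log2 values of 7.69, 7.49 and 7.72 in the knock-down lines and 6.81, 6.89 and 6.66 in the vector lines, with a gap of 0.60 between the groups. Its mean rose from 6.79 ± 0.12 to 7.63 ± 0.12 (SD, n = 3), or by 0.85 log2 units (SE 0.10, 95% confidence interval 0.61 to 1.09, adjusted p = 0.00227). Dbp was the one member called in all 16 alternatives (adjusted p 1.1e-04 to 0.0355), with log2 fold changes of 0.78 to 0.93. Sphk2, a sphingosine kinase gene that overlaps Dbp in the annotation, stood at 6.61 ± 0.045 and 6.66 ± 0.025 (adjusted p = 0.723). Tef stood at 6.83, 6.79 and 6.86 against 6.94, 6.70 and 6.85. The knock-down lines of Tef lay inside the range of the vector lines, and the log2 fold change was −0.0013 (95% confidence interval −0.21 to 0.21, adjusted p = 0.995), or 0.079 after median centring. Hlf, the remaining PAR bZIP gene, lay below background in both groups.

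**Figure D2:**
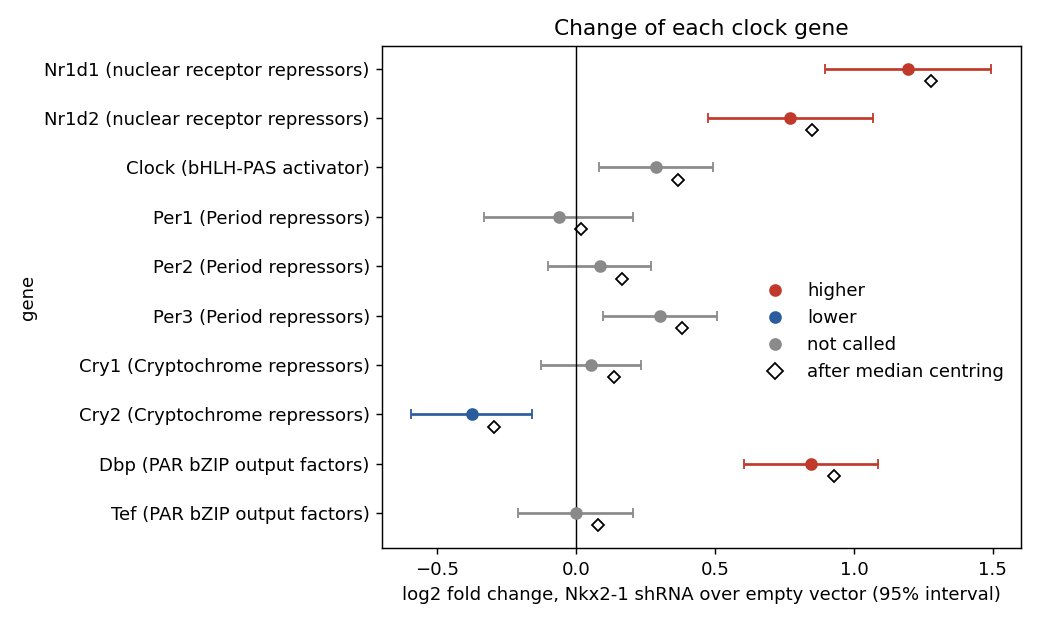
Log2 fold change of each clock gene (horizontal axis, Nkx2-1 shRNA over empty vector, 3 arrays each) with its 95% confidence interval, by gene and role (vertical axis); red was called higher, blue lower and grey not called, and diamonds are the values after median centring. Nr1d1 at 1.20, Dbp at 0.85 and Nr1d2 at 0.77 lie right of the rest, and Cry2 at −0.38 is the only gene whose interval lies below 0.

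Members of one family were compared within each array, as the difference of their log2 values, by exact two-sided permutation tests over the 10 distinct splits of 6 arrays, in which no p can be below 0.1. The change of Dbp exceeded that of Tef by 0.85 (95% interval 0.50 to 1.20, exact p = 0.1, adjusted over the 6 pairs 0.15). Cry1 exceeded Cry2 by 0.43 (0.14 to 0.72, exact p = 0.1, adjusted 0.15). Per3 exceeded Per2 by 0.22 and Per1 by 0.36, each with an exact p of 0.1 and intervals of 0.13 to 0.31 and 0.054 to 0.67 for the size of the difference. In these 4 pairs the differences of the knock-down arrays did not overlap those of the vector arrays. Nr1d1 exceeded Nr1d2 by 0.43 (−0.044 to 0.89, exact p = 0.2, adjusted 0.24), and Per1 and Per2 differed by −0.15 (−0.49 to 0.20, exact p = 0.4). In these pairs the arrays overlapped. All 6 differences kept their sign without any 1 array, the difference of Per1 and Per2 shrinking to −0.040.

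The other transcription factors of the loop moved in both directions. Of 12 listed, 10 were measured and the others were not analysed here. Of the 10, 3 rose, 2 fell and 5 did not pass, against 16.8% of all transcript clusters called in either direction. The median log2 fold change of the 10 was 0.016. Bhlhe40, an E-box repressor also known as DEC1, rose most, from 8.12, 8.11 and 7.85 in the vector lines to 9.52, 9.35 and 9.68 in the knock-down lines (log2 fold change 1.49, SE 0.12, adjusted p = 4.99e-04). Its groups stood 1.23 apart. Nfil3, the repressor at the D-box, rose from 6.70, 6.62 and 6.45 to 7.49, 7.40 and 7.40 (log2 fold change 0.84, adjusted p = 0.00155), so that Dbp and its opponent were both higher. Ciart, a repressor of the CLOCK and BMAL1 pair, rose by 0.83 (adjusted p = 0.00566), and its other transcript cluster by 0.88 (adjusted p = 8.5e-04). The calls of Nfil3 and Ciart ended with the unequal-variance test (adjusted p = 0.0573 and 0.0661).

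The ROR receptors, which activate the elements that NR1D proteins repress, were lower. Rora fell from 5.62, 5.51 and 5.48 to 5.11, 5.05 and 5.01, without overlap (log2 fold change −0.48, adjusted p = 0.00775). Rorb fell from 9.66, 9.55 and 9.23 to 4.42, 4.12 and 4.37, with a mean below the background limit (limma on these values, adjusted p = 2.8e-05). With knock-down arrays set to the limit where they lay under it, Rorb was at least 34.3-fold lower. Arntl, the shared target of RORs and NR1D proteins and the gene of BMAL1, stood at 7.71, 7.76 and 7.79 against 7.77, 7.67 and 7.53. Its groups overlapped, with a difference of 0.097 log2 units (95% confidence interval −0.11 to 0.31, adjusted p = 0.542). Arntl2, Hlf and Bhlhe41 lay below background in both groups, and Timeless differed by −0.060 (adjusted p = 0.729).

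Of 11 genes for kinases and ubiquitin ligases that act on clock proteins, 9 were measured and 1 was called. Of all transcript clusters 16.8% were called. Fbxw11, a ubiquitin ligase subunit of the kind that marks PER proteins for breakdown, rose by 0.43 (adjusted p = 0.00939). The casein kinase gene Csnk1e stood at 9.16, 9.16 and 9.15 against 8.93, 8.93 and 8.89, a log2 fold change of 0.24 that did not pass (adjusted p = 0.0590), and Csnk1d at −0.045 (adjusted p = 0.622). Of 6 genes of the co-repressor complex that NR1D proteins recruit, 4 were measured and none was called by limma (3 at an unadjusted p under 0.05, a cut that 29.6% of all transcript clusters passed). The histone deacetylase gene Hdac3 differed by −0.18 (adjusted p = 0.188). The median of the kinase and ligase list was 0.14 and that of the co-repressor list −0.20.

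Of 8 genes that cycle in many tissues, 7 were measured, 2 rose and 1 fell, against 7.61% and 9.24% of all transcript clusters. Klf9, a Krüppel-like repressor gene, rose from 6.90, 6.99 and 7.14 to 7.63, 7.68 and 7.67 (log2 fold change 0.65, adjusted p = 0.00348). Tsc22d3, the gene of the glucocorticoid-induced leucine zipper, rose from 4.99, 5.04 and 4.96 to 5.64, 5.64 and 5.61 (log2 fold change 0.63, adjusted p = 0.00171). Both changes were larger than the spread within the groups. Lonrf3 fell by 0.42 (adjusted p = 0.0392), a call that ended with median centring (adjusted p = 0.0730), the methods' own test (0.0987) and the unequal-variance test (0.132), and in all fits without 1 array except that without empty vector replicate 3, the highest adjusted p being 0.118. Wee1, the mitotic kinase gene, stood at 0.28 (adjusted p = 0.0603) and the protease gene Usp2 at −0.12 (adjusted p = 0.365). Of the 3 measured targets of PAR bZIP factors, the nuclear receptor gene Nr1i3 rose by 0.63 (adjusted p = 0.00616), Pdxk, the pyridoxal kinase gene, fell by 0.90 (adjusted p = 0.00288) and Alas1 did not pass (0.10, adjusted p = 0.728). The 3 targets were thus split between directions. The calls of Klf9, Nr1i3 and Pdxk ended with the unequal-variance test (adjusted p = 0.0864, 0.0517 and 0.0973).

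**Figure D3:**
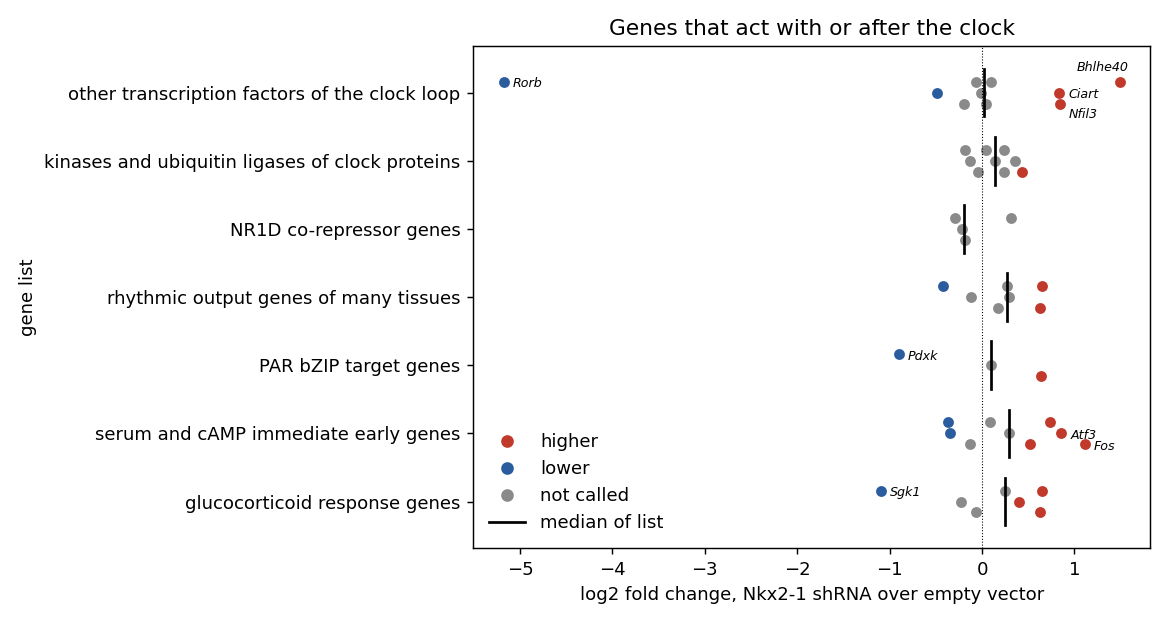
Log2 fold change (horizontal axis, Nkx2-1 shRNA over empty vector) of the genes of 7 lists related to the clock (vertical axis). Each list has 1 point per gene and a black bar at its median, where red was called higher, blue lower and grey not called. Tsc22d3 and Klf9 stand in more than 1 list, and the member Per1 is in the glucocorticoid list. Rorb, at a measured difference of −5.17 with its knock-down mean below background, stands far left, and Bhlhe40 at 1.49 and Fos at 1.11 are the highest points.

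Signals that reset the clock from outside act through immediate early genes and the glucocorticoid receptor, and genes of both responses were among those called. Of 9 immediate early genes 4 rose and 2 fell, against 7.61% and 9.24% of all transcript clusters. With median centring 4 rose and none fell, where 3484 of all 35557 clusters were called higher and 2376 lower. Fos rose from 5.67, 6.04 and 5.78 to 6.91, 7.03 and 6.89 (log2 fold change 1.11, adjusted p = 0.00117) and Atf3 by 0.86 (adjusted p = 6.3e-04). Junb rose by 0.74 (adjusted p = 0.0178) and Egr1 by 0.52 (adjusted p = 0.0118), while Fosb fell by 0.37 (adjusted p = 0.0287) and Egr2 by 0.34 (adjusted p = 0.0470). The calls of 4 of them ended when 1 array was left out. That of Egr1 ended without Nkx2-1 shRNA replicate 1 (adjusted p = 0.0505), that of Egr2 without any 1 array (up to 0.138), that of Fosb without any 1 array except empty vector replicate 2 (up to 0.0924), and that of Junb without Nkx2-1 shRNA replicate 1 or 2 or empty vector replicate 1 or 3 (up to 0.0667).

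Of 7 glucocorticoid response genes, Per1 among them, 3 rose and 1 fell, against 7.61% and 9.24% of all transcript clusters. Besides Klf9 and Tsc22d3, Fkbp5, which encodes a chaperone of the receptor, rose by 0.41 (adjusted p = 0.0253), a call that ended without any 1 array except Nkx2-1 shRNA replicate 3 (up to 0.0923). Sgk1, a kinase gene of the same response, fell from 8.53, 8.48 and 8.14 to 7.36, 7.21 and 7.31 (log2 fold change −1.09, adjusted p = 0.00166). The response genes were thus split between directions, with a median of 0.25. Of the called genes of both responses, the unequal-variance test ended the calls of Fos, Junb, Egr1, Fosb, Egr2, Fkbp5, Klf9 and Sgk1 (adjusted p from 0.0663 for Fos to 0.146 for Junb), while those of Atf3 and Tsc22d3 held. The part of either response in the change of the clock genes was not tested.

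Genes next to a member on its chromosome moved to differing degrees. Each member was set beside its 20 nearest genes above background, 10 on each side. These spanned 316 kb around Dbp, 640 kb around Nr1d1 and 12035 kb around Nr1d2, so the stretches compared differ in size. Around Nr1d1 (chromosome 11) the neighbors had a median log2 fold change of −0.089, with 1 called higher and 4 lower, so that its rise stood above all of them (highest 0.44). Around Nr1d2 (chromosome 14) the median was 0.11, with 2 higher and 2 lower, and 1 neighbor exceeded it (1.58). Around Dbp (chromosome 7) the median was 0.062, but 8 of the 20 were called higher and 1 lower, and 3 exceeded Dbp (highest 1.67). Around Cry2 (chromosome 2) the median was −0.27, with 8 of 20 called lower, 2 higher and 10 not called, and 7 of the 20 had a value below its own −0.38. Clock (chromosome 5) had neighbors with a median of 0.19, 3 of them called higher and none lower. For the other 5 members the medians ran from −0.14 (Tef) to 0.034 (Per3). The part of the chromosomal surroundings in the changes of Cry2, Clock and Dbp was not tested.

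**Figure D4:**
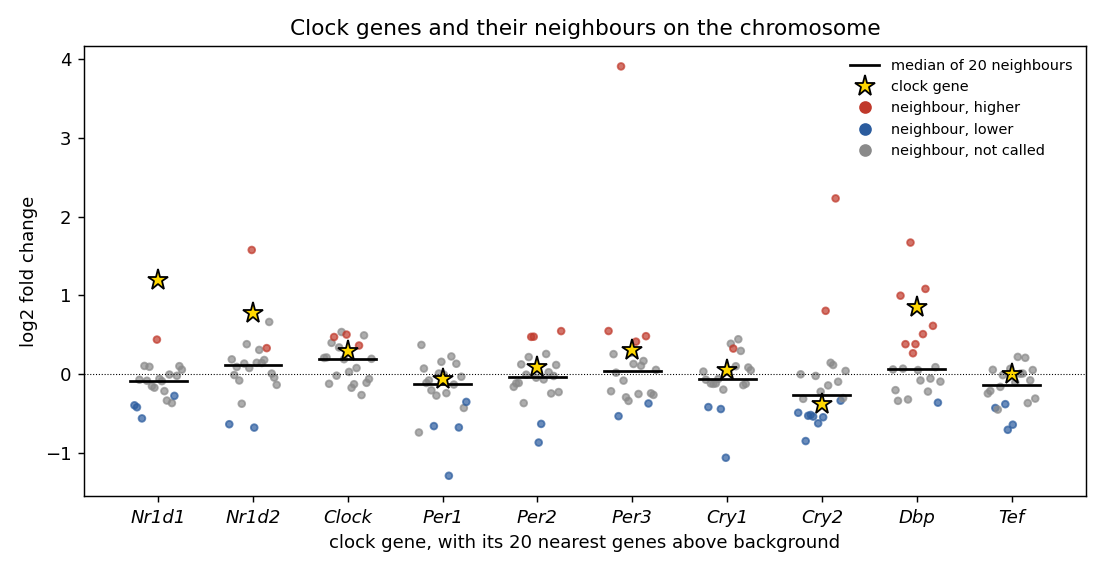
Log2 fold change (vertical axis) of each clock gene (star) and of its 20 nearest genes above background on the same chromosome (points, red called higher, blue lower, grey not called), with a black bar at the neighbors' median. The stars of Nr1d1 and Dbp lie far above their bars, at −0.089 and 0.062, and the star of Cry2, at −0.38, lies beside a bar at −0.27.

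Genes with a pattern like that of Nr1d1 and Dbp were sought by the root mean square difference of the 6 log2 values, each gene centered on its vector mean, among 13570 other genes above background. Nearest to Nr1d1 were Spire1 (difference 0.055), an actin nucleation gene, Rhbdd1 (0.071), Mtus1 (0.079), the endothelin gene Edn1 (0.080) and the bicarbonate transporter gene Slc4a4 (0.080). Nearest to Dbp were the stress sensor gene Atf6 (0.047), Sned1 (0.051), the chemokine gene Cxcl16 (0.054), Plekha6 (0.060) and the sarcoglycan gene Sgcb (0.061). No clock gene was among these 10. The measure depends largely on the size of the change. The genes named had log2 fold changes of 1.12 to 1.27 for Nr1d1 and of 0.82 to 0.885 for Dbp.

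**Figure D5:**
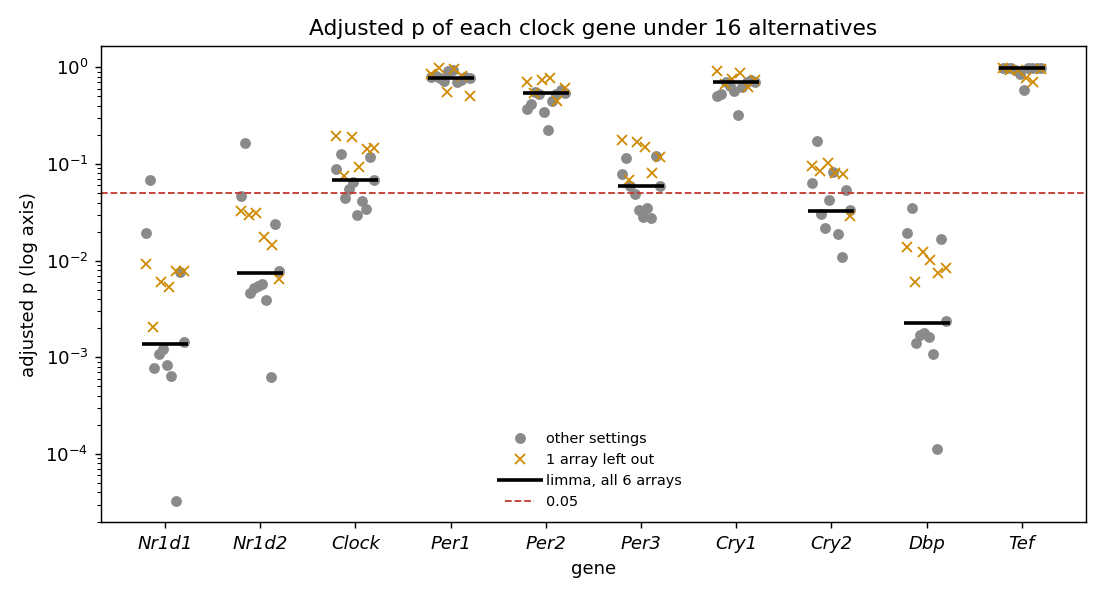
Adjusted p (vertical log axis) of each clock gene (horizontal axis) by limma on all 6 arrays (black bar), in the 6 fits without 1 array (crosses) and in the other 10 alternatives (grey circles), with 0.05 as a dashed line. All marks of Dbp lie below the line, 1 mark each of Nr1d1 and Nr1d2 lies above it, Clock, Per3 and Cry2 straddle it, and Per1, Per2, Cry1 and Tef lie above it throughout.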

How the data were processed

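Total RNA of 3 Nkx2-1 shRNA and 3 empty vector MLE15 lines was measured on 6 Mouse Gene 1.0 ST arrays (Affymetrix), 1 per line. The authors summarized them with Expression Console 1.1 by Robust Multi-Array Analysis, which corrects background, normalizes quantiles and summarizes probes, and deposited log2 values (0.46 to 13.69). These were used unchanged. The genome build of the array annotation is not given in the sources used here.

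Members were read from the transcript cluster whose single symbol matched (21789 clusters carry 1 symbol, 1621 several and 12147 none), by the highest mean over 6 arrays where a gene had several; each member had 1. limma 3.58.1 under R 4.3.3 compared the groups (4 residual and 2.86 prior degrees of freedom), with Benjamini-Hochberg adjustment over all 35557 clusters. The background limit is the 95th percentile of 1250 clusters of chemosensory receptor genes. Precision is limited by the number of arrays, and p-values measure the spread between these lines. Neighbors and promoters are from RefSeq GRCm38.p6. The test was checked on simulated data.

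Members and lists were chosen with earlier results of these data known, so no list was tested as a set. All members were named, with every called gene of the related lists, Arntl, and the 5 genes most like Nr1d1 and Dbp; other genes were named after their values had been seen. The 16 alternatives were 2 other tests, 2 other limma settings, 2 scalings, 2 filters, a replicate block, 6 fits without 1 array and the average over the clusters of a gene. The study's threshold was applied as well.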

Additional observations from a re-analysis of the deposited data

How the results depend on the processing

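The count of members called higher was 3 and became 5 with median centring, among transcript clusters above background or among those with 1 symbol, 1 with the unequal-variance test and 0 at the study's threshold. It was 3 without any 1 array. The count called lower was 1 and became 0 with the methods' t-test, the unequal-variance test, median centring, a replicate block and at the study's threshold, and 0 to 1 without 1 array. Both filters also raised the share of calls in the whole table. Of 23139 clusters above background 3086 were called higher and 3836 lower, and of 21789 with 1 symbol 2854 and 2953. The call of Nkx2-1 (log2 fold change −0.69) ended with the unequal-variance test (adjusted p = 0.0550), which uses the same group means. Nkx2-1 also missed the study's threshold by its limma adjusted p of 0.00155. No direction of a called gene was reversed. Only the scalings, the array weights, the fits without 1 array and the average over clusters could have changed a direction.

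Of the related lists, the other transcription factors had 5 calls, 3 with the unequal-variance test and 2 at the study's threshold. The kinases and ubiquitin ligases had 1, which became 2 with the methods' t-test or array weights, 3 with a trended and robust prior, median centring or either filter and 0 at the study's threshold, and was 1 to 2 without 1 array. The co-repressors had 0, and 1 among clusters with 1 symbol. The rhythmic output genes had 3, and 1 and 0 with the unequal-variance test and the study's threshold. The PAR bZIP targets had 2, and 0 with both. The immediate early genes had 6, 3 with the methods' t-test, 1 with the unequal-variance test, 0 at the study's threshold and 2 to 5 without 1 array, and the glucocorticoid response genes had 4, and 1 and 0. The cause of these differences was not tested.

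The main fit did not treat the replicate numbers as pairs. Deviations from the group means correlated by 0.089, 0.218 and −0.055 between arrays of the same number. Nkx2-1 shRNA replicates 1 and 2 were nearest to the vector array of their own number, and replicate 3 to empty vector replicate 1 (0.222). With 3 arrays per group these values cannot settle whether the numbers pair the lines. With a replicate block 3 members were called higher and 0 lower. With the 90th percentile the background limit would be 3.97. The paralog differences kept their signs with a repeated quantile normalization. Median centring and the block leave these within-array differences unchanged by construction.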
